A study of Bubalus bubalis with 36 samples.

Results

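The miR-23, miR-27 and miR-24 microRNAs (miRNAs) were followed across 6 adipose depots of 6 buffaloes (Bubalus bubalis). Members were taken by name: every row of the count table called bta-miR-23a, bta-miR-23b, bta-miR-27a, bta-miR-27b or bta-miR-24, with or without an arm suffix. This gave 8 of the 1682 features of the table, namely bta-miR-23a, bta-miR-27a-3p, bta-miR-27a-5p, bta-miR-23b-3p, bta-miR-23b-5p, bta-miR-27b, bta-miR-24-3p and bta-miR-24. All 8 passed the filter on low counts that left 667 features for testing. The table does not say which arm the row bta-miR-24 holds, and no row was named for a second arm of miR-23a or miR-27b.

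Subcutaneous fat came from 3 sites, back (BSAT), sternal (SSAT) and inguinal (IAT). Visceral fat also came from 3 sites, omental (OAT) in the abdomen, pericardial (PCAT) around the heart and perirenal (PRAT) around the kidney. Each depot had 6 libraries, 1 from each animal, so each class had 18 and the whole set had 36. All animals shared the same rearing, with weaning at 3 months, fattening from 15 months and slaughter at 20 months of age, and no treatment or genotype is named in the labels. The tissue was whole fat, in which fewer cells of a type and less RNA per cell cannot be told apart. Libraries are named here by depot and animal number, so SSAT6 is the sternal library of animal 6.

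As background, these miRNAs are made from a pair of gene clusters. The a cluster carries miR-23a, miR-27a and a copy of miR-24, and the b cluster carries miR-23b, miR-27b and another copy of miR-24. The mature miR-24-3p is the same molecule from either cluster, whereas miR-23a differs from miR-23b, and miR-27a from miR-27b, by a single base. Each hairpin can release a mature RNA from its 5′ arm and from its 3′ arm, and usually a dominant arm is loaded into Argonaute to repress target mRNAs. In fat, miR-27a and miR-27b are known for holding back the formation of fat cells through PPARG, the master transcription factor of that process. miR-23a and miR-23b are known for repressing glutaminase, and miR-24 for repressing regulators of the cell cycle.

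Counts per library ran from 9484589 to 13920998 with a median of 12525362. The 8 members together took 3.71% to 12.3% of a library's counts, with a median of 6.68%. Levels are given in CPM, the count as a share of the library on a common scale, with TMM library factors. The most abundant member was miR-27b, which averaged 31617 CPM over all libraries and ranked 12 among all features. It was followed by miR-27a-3p with 12604 CPM, miR-24-3p with 11557 CPM, miR-23b-3p with 8706 CPM and miR-23a with 6092 CPM. The remaining rows were far lower: miR-27a-5p averaged 52.9 CPM, miR-24 averaged 27.3 CPM and miR-23b-5p averaged 10.3 CPM. Mature miRNAs have nearly the same length, so these levels were set side by side without a length correction. How well each miRNA is captured in a library was not tested. Every member had at least 1 count in all 36 libraries, and the lowest count was 1, for miR-23b-5p.

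**Figure D1:**
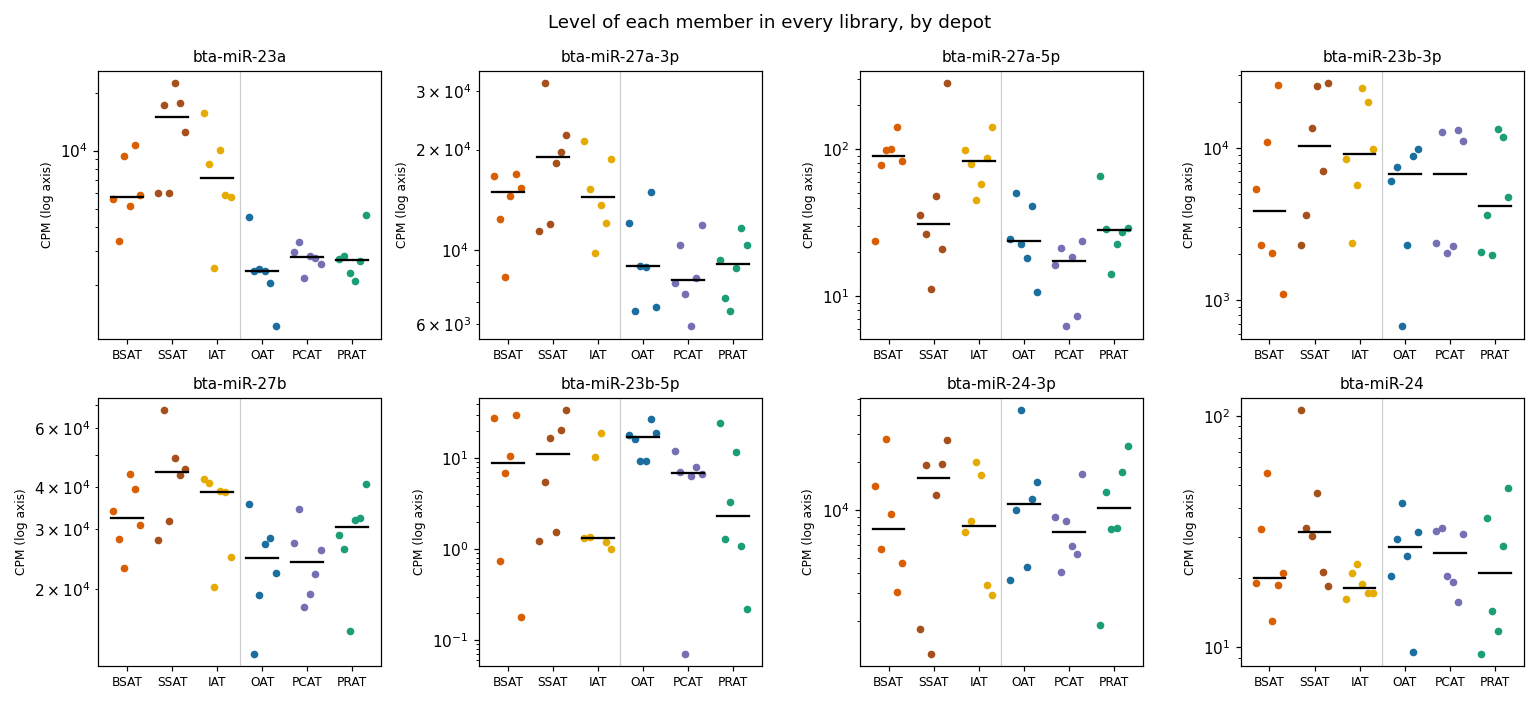
Level of each of the 8 members in CPM (log axis) in the 6 depots, subcutaneous left and visceral right of the grey line. Each point is 1 library and each bar is the median of 6. In miR-23a, 16 of 18 subcutaneous libraries lie above every visceral library, whereas in miR-24-3p none does.

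The study's main question was how subcutaneous and visceral fat differ. In that comparison 4 of the 8 members were higher in subcutaneous fat and 0 were lower. The 4 were the 3 rows of the a cluster (miR-23a with both arms of miR-27a) together with miR-27b of the b cluster. Over all 667 features, 7.2% were called higher in subcutaneous fat and 9.3% lower. A call means an adjusted p under 0.05 in edgeR's quasi-likelihood test with Benjamini-Hochberg adjustment over all features, and differences are subcutaneous minus visceral on the log2 scale with their SE. With library totals in place of TMM factors, the share of calls that were higher fell from 43.6% to 18.8%, and the median difference over all features moved from −0.09 to −0.29. Under that scaling miR-23a (1.51), miR-27a-3p (0.61) and miR-27a-5p (1.51) kept their calls, and miR-27b did not (0.31, adjusted p = 0.0664).

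In the a cluster, miR-23a showed the clearest separation of the classes. Its level ran from 2460 to 22463 CPM with a median of 7305 in the 18 subcutaneous libraries, and from 1222 to 4628 CPM with a median of 2625 in the 18 visceral ones. Only IAT3 (2460 CPM) and BSAT2 (3388 CPM) among the subcutaneous libraries fell within the visceral range. The means were 9466 ± 5574 and 2718 ± 814 CPM (SD, n = 18 each). The log2 difference was 1.73 ± 0.21 (adjusted p = 2.67e-07), a 3.33-fold higher level, with the same direction in 6 of 6 animals and animal differences from 1.17 to 2.13.

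By depot, miR-23a was highest in sternal fat, where it ran from 6034 to 22463 CPM with a median of 14882. Inguinal fat followed with 2460 to 15632 CPM and a median of 7219, and back fat with 3388 to 10748 CPM and a median of 5735. The visceral depots lay close together and low. Perirenal fat had 2097 to 4628 CPM (median 2711), pericardial fat 2186 to 3368 CPM (median 2802) and omental fat 1222 to 4514 CPM (median 2360). In sternal fat every library was above every visceral library. The sternal range overlapped those of the other subcutaneous depots, and SSAT1 (6042 CPM) and SSAT3 (6034 CPM) were well below the other 4 sternal libraries, which started at 12490 CPM.

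miR-27a-3p, the dominant arm of the other miRNA of the a cluster, was also higher in subcutaneous fat but with more overlap. Its level ran from 8304 to 31662 CPM (median 15285) in subcutaneous and from 5906 to 14909 CPM (median 8859) in visceral libraries, and 10 of 18 subcutaneous libraries lay above all visceral ones. The means were 16108 ± 5477 and 9100 ± 2390 CPM (SD, n = 18 each), and the log2 difference was 0.81 ± 0.15 (adjusted p = 1.96e-04; higher in 6 of 6 animals). The log2 difference of miR-23a was thus larger than that of miR-27a-3p, but the difference between the 2 changes was not tested.

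By mean log2 level the subcutaneous depots took the same order as for miR-23a. Sternal fat had 11422 to 31662 CPM of miR-27a-3p (median 18986), inguinal fat 9806 to 21218 CPM (median 14417) and back fat 8304 to 16869 CPM (median 14937). Omental fat had 6560 to 14909 CPM (median 8941), perirenal fat 6568 to 11617 CPM (median 9091) and pericardial fat 5906 to 11858 CPM (median 8108). The highest library of all was SSAT2. The ranges of back, inguinal and sternal fat all overlapped the visceral range, through BSAT2, BSAT3, BSAT4, IAT3, IAT4, IAT5, SSAT1 and SSAT3.

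miR-27a-5p, the minor arm of the same hairpin, ran from 11.1 to 282 CPM (median 78.2) in subcutaneous and from 6.22 to 66.1 CPM (median 22.6) in visceral libraries. The means were 80.9 ± 63.4 and 24.9 ± 15.0 CPM (SD, n = 18 each). The log2 difference was 1.76 ± 0.33 (adjusted p = 2.98e-04; higher in 6 of 6 animals), and 1.31 (adjusted p = 3.45e-04) without SSAT6, the library with the highest level. Unlike the other members of the cluster, this arm did not have its highest median in sternal fat.

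Back fat had 23.6 to 142 CPM of miR-27a-5p (median 90.4) and inguinal fat 45.0 to 141 CPM (median 82.5). Sternal fat had a median of 30.9 CPM, with 5 libraries between 11.1 and 48.0 CPM and SSAT6 at 282 CPM, so its mean of 70.6 CPM rests on that library. Perirenal fat had 14.2 to 66.1 CPM (median 27.9), omental fat 10.7 to 50.3 CPM (median 23.5) and pericardial fat 6.22 to 23.7 CPM (median 17.2). Every inguinal library was above every pericardial library, while the sternal range took in most of the visceral one.

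In the b cluster, miR-27b was higher in subcutaneous fat by a smaller amount. It ran from 20304 to 67765 CPM (median 38794) in subcutaneous and from 12832 to 40818 CPM (median 26667) in visceral libraries, with means of 37264 ± 11279 and 25969 ± 7527 CPM (SD, n = 18 each). The log2 difference was 0.51 ± 0.15 (adjusted p = 0.0145; higher in 6 of 6 animals, by 0.17 to 0.92). The call was lost without animal 4 (0.49, adjusted p = 0.0661), as it was with library totals.

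Sternal fat again had the highest levels of miR-27b, 27867 to 67765 CPM with a median of 44436. Inguinal fat had 20304 to 42316 CPM (median 38794), back fat 22989 to 43873 CPM (median 32415) and perirenal fat 14986 to 40818 CPM (median 30402). Pericardial fat had 17613 to 34470 CPM (median 24061) and omental fat 12832 to 35764 CPM (median 24736). All 6 depots overlapped. Animal 3 gave the lowest library of 4 depots (BSAT, IAT, PCAT and PRAT), and animal 2 gave both the highest sternal and the lowest omental library.

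miR-23b-3p, the close relative of miR-23a, varied mostly between libraries of the same depot. It ran from 1103 to 26658 CPM (median 7706) in subcutaneous and from 672 to 13330 CPM (median 5407) in visceral libraries. The means were 10956 ± 9371 and 6456 ± 4563 CPM (SD, n = 18 each). The log2 difference of 0.74 ± 0.43 was not called (adjusted p = 0.242), and 4 of 6 animals had the higher level in subcutaneous fat. It was 0.45 without BSAT5 and 1.11 in the B libraries alone, again not called. Its animal differences ran from −1.37 in animal 2 to 2.76 in animal 3.

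Within each depot the highest library of miR-23b-3p had many times the level of the lowest. Back fat ran from 1103 to 25691 CPM (median 3845), sternal fat from 2306 to 26658 CPM (median 10292) and inguinal fat from 2388 to 24827 CPM (median 9118). Omental fat ran from 672 to 9752 CPM (median 6765), pericardial fat from 2038 to 13161 CPM (median 6690) and perirenal fat from 1984 to 13330 CPM (median 4159). The low and high libraries came from different animals in different depots: animal 6 had the lowest back library and the highest sternal and omental ones.

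The minor arm miR-23b-5p was scarce, between 0.07 and 33.8 CPM, and a library each of back, pericardial and perirenal fat held only 1 or 2 counts. Its median was 6.22 CPM in subcutaneous and 8.66 CPM in visceral fat, and the log2 difference of 0.10 ± 0.57 was not called (adjusted p = 0.932; higher in 2 of 6 animals). By depot its median ran from 1.33 CPM in inguinal to 17.2 CPM in omental fat. Omental fat had no library under 9.40 CPM and reached 26.97 CPM, and the ranges of all 6 depots overlapped.

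The shared miRNA, miR-24-3p, showed no class difference past the threshold. It ran from 1235 to 28131 CPM (median 8956) in subcutaneous and from 1876 to 42721 CPM (median 8766) in visceral libraries, with means of 11434 ± 8734 and 11680 ± 9785 CPM (SD, n = 18 each). The log2 difference was −0.01 ± 0.39 (adjusted p = 0.987; higher in 3 of 6 animals), and its sign changed with the scaling. The SE leaves room for differences in either direction of the size seen in miR-27b.

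Omental fat had 3629 to 42721 CPM of miR-24-3p (median 10854), perirenal fat 1876 to 25543 CPM (median 10363) and pericardial fat 4075 to 16952 CPM (median 7232). Sternal fat had 1235 to 27568 CPM (median 15843), back fat 3020 to 28131 CPM (median 7534) and inguinal fat 2890 to 20232 CPM (median 7898). The highest library was OAT3. The depots overlapped almost completely, and no animal was high or low throughout.

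The row named miR-24 without an arm ran from 13.0 to 106 CPM (median 20.9) in subcutaneous and from 9.39 to 48.6 CPM (median 26.1) in visceral libraries. Its log2 difference of 0.13 ± 0.24 was not called (adjusted p = 0.729; higher in 4 of 6 animals) and its sign changed with library totals. Inguinal fat had the narrowest range, 16.2 to 22.8 CPM, and sternal fat the highest library, SSAT1.

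**Figure D2:**
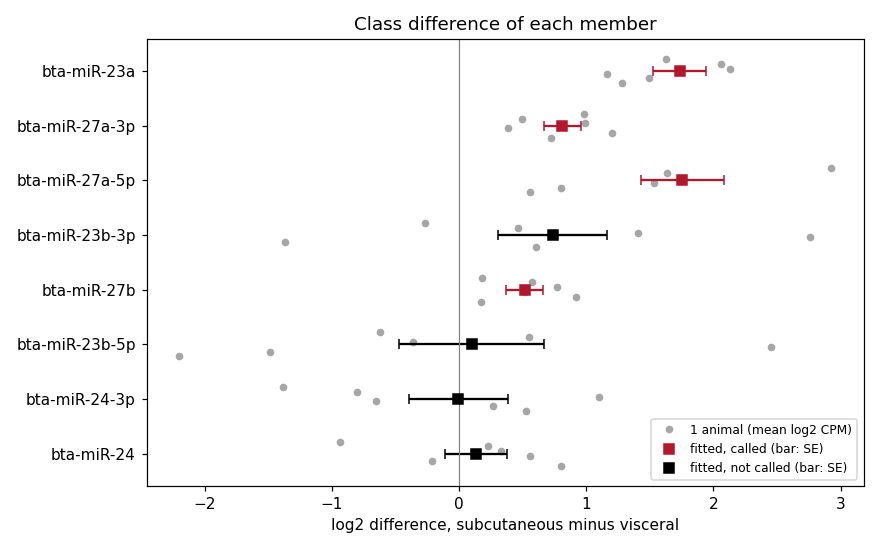
Difference of each member between subcutaneous and visceral fat on the log2 scale. Squares are the fitted differences with their SE (red where called), and each grey point is 1 animal's difference in mean log2 CPM. The 4 called members have all 6 animals above 0, whereas the animals of the others lie on both sides of 0.

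A few libraries carry a letter A in their names and the rest a letter B, and the labels do not say what the letter means. Of the 8 A libraries, 7 were visceral and 1 was subcutaneous. Among the B libraries alone the class difference was 1.71 for miR-23a (adjusted p = 3.94e-04), 0.81 for miR-27a-3p (adjusted p = 0.0178), 1.76 for miR-27a-5p (adjusted p = 0.00874) and 0.57 for miR-27b (adjusted p = 0.104). The A libraries hold too few of the subcutaneous class for a value of their own.

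Next, variation over the 6 depots was tested with a single F test for each member. It called 3 of 8 members, miR-23a (adjusted p = 2.71e-06), miR-27a-3p (adjusted p = 0.00274) and miR-27a-5p (adjusted p = 0.00615), where 13.9% of all features were called. miR-27b missed the threshold (adjusted p = 0.0708), but fell under it when any 1 of 13 of the 36 libraries was left out (BSAT3, BSAT6, SSAT1, SSAT3, IAT3, IAT4, IAT6, OAT1, OAT4, PCAT2, PCAT5, PRAT3 or PRAT6), with the lowest value, 0.0218, without OAT1. It also passed with the animal as a block (adjusted p = 0.0364). The remaining members had adjusted p from 0.324 to 0.909. In the B libraries alone miR-27a-3p (adjusted p = 0.0572) and miR-27a-5p (adjusted p = 0.0549) missed the threshold and miR-23a did not (adjusted p = 0.00197).

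Within a class, no member was called by the edgeR or limma F test, while DESeq2 called 2 single pairs of subcutaneous depots. By the edgeR F test, 0 of 8 members were called among the 3 subcutaneous depots, where 0.6% of features were called, with 2 members at an unadjusted p under 0.05 and 0 called by limma. Among the 3 visceral depots 0 of 8 were called against 1.95% of features, with 0 members at an unadjusted p under 0.05 and 0 called by limma. In the subcutaneous class the lowest adjusted p was 0.243, for miR-23a. The 2 pairs that DESeq2 called were back minus sternal fat in miR-23a (−1.16, adjusted p = 0.0363) and sternal minus inguinal fat in miR-24 (1.22, adjusted p = 0.0375), and edgeR and limma called neither.

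Each pair of depots was then compared, with adjustment over all features and all 15 pairs, and 2.1% of these tests were called. miR-23a was called in 7 of 15 pairs by edgeR (10 by DESeq2 and 7 by limma), in edgeR all between classes: sternal and inguinal fat each against the 3 visceral depots, and back against omental fat. The differences ran from 1.42 ± 0.36 for back against omental fat (adjusted p = 0.0254) to 2.45 ± 0.37 for sternal against omental fat (adjusted p = 6.31e-05). The miR-23a count fell to 3 without animal 4 and to 2 in the B libraries alone.

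miR-27a-3p was called in 3 pairs by edgeR (4 by DESeq2 and 2 by limma). In edgeR these were sternal fat against each visceral depot, with differences from 0.99 ± 0.25 (omental) to 1.16 ± 0.25 (pericardial). The edgeR count for miR-27a-3p fell to 1 without animal 2, without animal 4, with no filter or in the B libraries alone. miR-27a-5p was called in a different set of 3 pairs, each subcutaneous depot against pericardial fat, with differences from 2.19 ± 0.58 (sternal) to 2.50 ± 0.58 (back). DESeq2 called the same 3 pairs, and limma called 2, without the sternal one. The sternal level leans on SSAT6 (282 CPM), as the next sternal library had 48.0 CPM. The edgeR count for miR-27a-5p fell to 0 without animal 4, without animal 5 or in the B libraries alone.

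No pair was called by edgeR for the other 5 members. At an unadjusted p under 0.05 there were 3 pairs for miR-27b, 1 for miR-24 and 0 for miR-23b-3p, miR-23b-5p and miR-24-3p. DESeq2 called 2 pairs for miR-27b, 1 for miR-24 and 0 for the remaining 3, and limma called 0 for all 5. The edgeR count for miR-27b was 1 or 2 in 28 of the 36 fits that left out a single library, and 2 with the animal as a block.

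When the depots were ordered by the mean log2 level of a member, no neighbouring depots differed in any of the 8 members by the edgeR test. For miR-23a the step between the classes, from back to perirenal fat, was 1.22 ± 0.36 (adjusted p = 0.0631). The step from sternal to inguinal fat was 0.76 ± 0.35 (adjusted p = 0.303), and that between omental and pericardial fat was 0.16 ± 0.35 (adjusted p = 0.892).

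Each depot was also set against the mean of the other 5. These always include the 3 depots of the opposite class, so a call partly restates the class difference. By edgeR, no pair of depots within a class was called for any member. Sternal fat was called in 3 of 8 members, all higher: miR-23a by 1.76 ± 0.24 (adjusted p = 6.91e-06), miR-27a-3p by 0.81 ± 0.18 (adjusted p = 0.00568) and miR-27b by 0.62 ± 0.19 (adjusted p = 0.0348), where 9.3% of features were called. The miR-27b call was lost without SSAT2 (0.53, adjusted p = 0.102) or SSAT4 (0.58, adjusted p = 0.107), without animal 2, 4 or 6 (adjusted p from 0.0653 to 0.0905) and in the B libraries alone (adjusted p = 0.0623). It was also lost with no filter (adjusted p = 0.0586), and with library totals (0.40, adjusted p = 0.102) or limma (0.39, adjusted p = 0.136) the difference was smaller by over 1.5 times.

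Pericardial fat was called in 2 of 8 members, both lower: miR-27a-5p by −1.80 ± 0.49 (adjusted p = 0.0140) and miR-23a by −1.0 ± 0.30 (adjusted p = 0.0235), where 9.15% of features were called. Against the other visceral depots alone neither member was called. There miR-23a differed by 0.16 ± 0.35 from omental and by −0.05 ± 0.35 from perirenal fat. For miR-27a-5p these differences were −0.85 ± 0.56 and −1.01 ± 0.56. The miR-27a-5p call was lost without animal 5 (adjusted p = 0.0576) and in the B libraries alone (adjusted p = 0.0777). The miR-23a call was lost without PCAT3 (−1.04, adjusted p = 0.0523), without animal 5 (adjusted p = 0.0576) or 6 (adjusted p = 0.0651), in the B libraries alone (adjusted p = 0.0748) and with limma (−0.72, adjusted p = 0.0550). Omental fat was called in miR-23a alone (−1.19 ± 0.30, adjusted p = 0.0398), against 1.5% of features, and this call was lost when any 1 of 21 of the 36 libraries was left out (adjusted p up to 0.121), with the animal as a block (−1.21, adjusted p = 0.0601), without animal 2, 4, 5 or 6 (adjusted p from 0.107 to 0.146) and in the B libraries alone (−0.96, adjusted p = 0.286).

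No member was called by edgeR in back fat (2.25% of features called), inguinal fat (0.3%) or perirenal fat (3.15%). At an unadjusted p under 0.05 there was 1 member in back, 3 in inguinal and 2 in perirenal fat. DESeq2 called 0, 0 and 1 members there, and limma 0 in each.

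The share of variation that went with depot differed widely among members. In a description by sums of squares of log2 CPM, depot took 69.1% of the variation of miR-23a, animal 3.81% and the rest 27.1%. Depot took 54.1% for miR-27a-3p, 51.5% for miR-27a-5p and 36.2% for miR-27b. It took 17.1% for miR-23b-5p, 15.8% for miR-24, 11.3% for miR-23b-3p and 1.82% for miR-24-3p. For miR-23b-3p and miR-24-3p most of the variation, 66.6% and 85.9%, went with neither depot nor animal. The share of animal was largest for miR-27b, with 23.8%, and for miR-23b-3p, with 22.2%. Depot and animal each take some share by chance alone, and no correction was made for it. The small depot shares of miR-23b-5p, miR-24, miR-23b-3p and miR-24-3p are therefore not evidence of a depot effect. The animal shares were not tested.

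The a and b clusters were compared within each library, where scaling plays no part. The log2 ratio of miR-23a to miR-23b-3p ran from −1.77 to 2.42 in subcutaneous and from −2.996 to 1.85 in visceral libraries. miR-23a made up between 11.1% (OAT6) and 84.2% (BSAT6) of the 2 together. It exceeded miR-23b-3p in 4 back, 3 sternal, 2 inguinal, 2 omental, 3 pericardial and 2 perirenal libraries. The class difference in this log2 ratio averaged 1.03 ± 1.52 (SD over 6 animals) and was higher in subcutaneous fat in 5 of 6 animals (exact two-sided sign-flip permutation test, p = 0.156). It was 0.66 without animal 2 and 1.55 without animal 3.

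miR-27a-3p was below miR-27b in all 36 libraries, and it made up 20.3% to 43.0% of the 2 together. The log2 ratio had a median of −1.21 in subcutaneous and −1.59 in visceral libraries. The class difference averaged 0.27 ± 0.36 (SD over 6 animals), with 4 of 6 animals higher in subcutaneous fat (exact permutation p = 0.125). It was 0.17 without animal 6 and also 0.17 in the B libraries alone.

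For miR-23a and miR-27a-3p summed over miR-23b-3p and miR-27b summed, the b cluster was the larger in every library. The a cluster took a median of 34.2% of the sum in back, 36.0% in sternal and 33.7% in inguinal fat, and 29.5% in omental, 27.5% in pericardial and 24.98% in perirenal fat. The subcutaneous depots thus had the higher medians, with overlap between all depots. The class difference in the log2 ratio was 0.49 ± 0.40 (SD over 6 animals; higher in 5 of 6; exact permutation p = 0.0625).

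The arms of miR-27a were also set against each other. miR-27a-5p made up between 0.083% and 1.26% of the 2 arms together, both extremes in sternal fat. The median share was 0.655% in back, 0.488% in inguinal, 0.184% in sternal, 0.228% in omental, 0.202% in pericardial and 0.266% in perirenal fat. Back and inguinal fat had the higher shares, and sternal fat the lowest median although its miR-27a-3p level was the highest. The class difference in the log2 ratio was 0.74 ± 0.89 (SD over 6 animals; higher in 4 of 6; exact permutation p = 0.125).

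Finally, miR-24-3p was set against the sum of miR-23a, miR-23b-3p, miR-27a-3p and miR-27b. The log2 ratio ran from −5.68 to −0.87 in subcutaneous and from −4.52 to 0.45 in visceral libraries, and OAT3 was the only library in which miR-24-3p exceeded the sum. The class difference was −0.88 ± 0.84 (SD over 6 animals; higher in subcutaneous fat in 2 of 6; exact permutation p = 0.125). All 5 ratios had an adjusted p of 0.156, so none was called. With 6 animals the exact test allows no p below 0.03125. After adjustment over 5 ratios, a single ratio at that p would miss the threshold unless most of the others reached it too. The lack of a call for any 1 ratio is therefore not evidence of equal balance. A difference in the balance of the clusters, or of the arms, between the classes was neither established nor excluded.

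**Figure D3:**
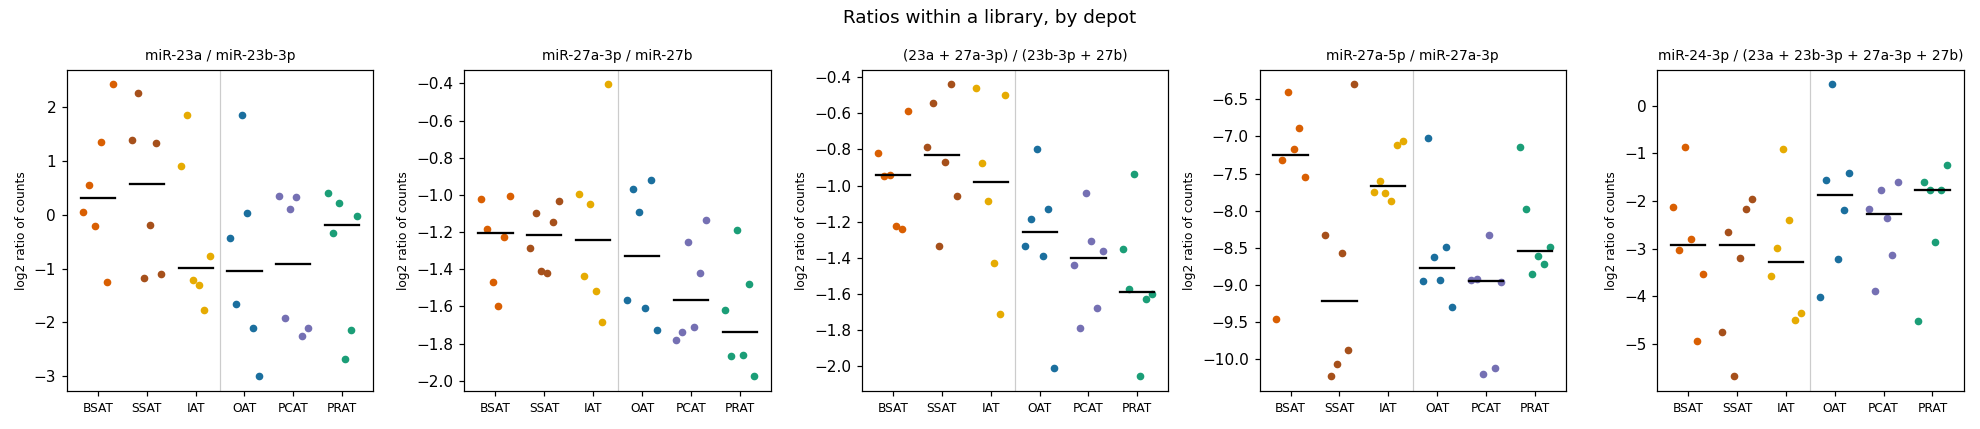
Log2 ratio of counts within each library for 5 pairs of members or sums, by depot; each point is 1 library and each bar the median of 6. The miR-27a-3p to miR-27b ratio lies below 0 in all libraries, and the miR-27a-5p to miR-27a-3p ratio has its lowest median in sternal fat.

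Reads of such near-identical miRNAs can be divided between rows by counting, so the pairs were also summed before the fit. miR-23a and miR-23b-3p together came to 20323 ± 12703 CPM in subcutaneous fat and 9159 ± 4419 CPM in visceral fat (SD, n = 18 each), and differed by 1.11 ± 0.27 on the log2 scale (adjusted p = 0.00608). miR-27a-3p and miR-27b together averaged 53084 ± 16355 and 35185 ± 8813 CPM, and differed by 0.58 ± 0.14 (adjusted p = 0.00410). Sternal fat was above the other 5 depots in both sums, by 1.20 ± 0.33 (adjusted p = 0.0216) and 0.68 ± 0.17 (adjusted p = 0.0138). These sums do not depend on how reads were divided within a pair.

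Members were next compared over the 36 libraries, which share animals and depots, so the correlations of log2 CPM are descriptions. miR-27a-3p and miR-27b had r = 0.81 (Spearman 0.79), and 0.73 within depots. miR-23a had r = 0.79 with miR-27a-3p (0.50 within depots) and 0.73 with miR-27b (0.56 within depots). miR-23a and miR-23b-3p had r = 0.33, and 0.22 within depots. miR-23b-3p and miR-27b, of the same cluster, had r = 0.32. miR-24-3p had r between 0.01 and 0.06 with miR-27b, miR-23a, miR-23b-3p and both arms of miR-27a. The arms of miR-27a had r = 0.53, and the arms of miR-23b had r = 0.30.

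**Figure D4:**
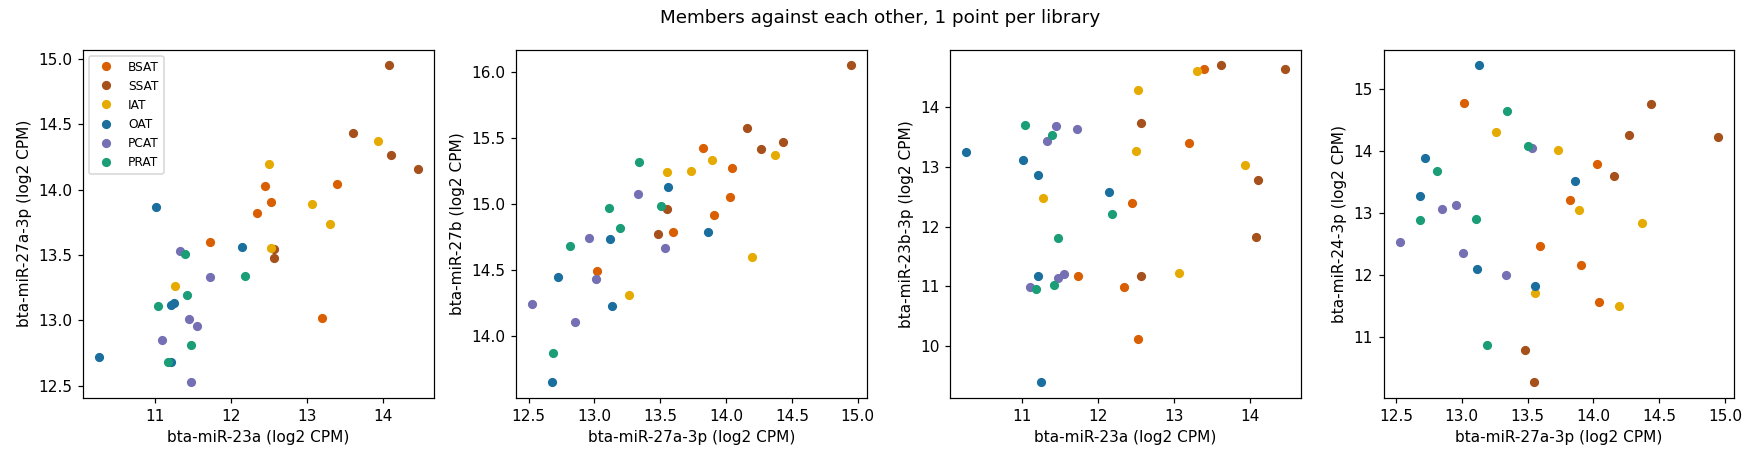
Members plotted against each other as log2 CPM, 1 point per library, coloured by depot. miR-23a with miR-27a-3p (r = 0.79) and miR-27a-3p with miR-27b (r = 0.81) rise together, while miR-23a with miR-23b-3p (r = 0.33) and miR-27a-3p with miR-24-3p (r = 0.06) scatter.

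Among 288 features with a mean of at least 10 CPM, the one most like miR-23a was the unnamed candidate locus NC_059165.1_25340, with r = 0.96 over 36 libraries. It was more abundant than miR-23a, by 4.09 to 9.57 times in single libraries with a median of 6.88. Its mean was 56766 ± 30409 CPM in subcutaneous fat and 20542 ± 5323 CPM in visceral fat (SD, n = 18 each), with a log2 difference of 1.40 ± 0.18 (adjusted p = 3.71e-07). Its highest depot was also sternal fat, with 43263 to 131172 CPM and a median of 87708. The table does not pair this locus with a miRNA name. Outside the members, the next features were miR-199b, a miRNA of connective tissue cells, with r = 0.90, and the candidate locus NC_059180.1_44945 with r = 0.74. The member miR-27a-3p ranked between them.

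The locus NC_059165.1_25340 also led for miR-27a-3p (r = 0.83) and was next to miR-27a-3p for miR-27b (r = 0.81). Further down were miR-2285aj-5p, a ruminant miRNA, with r = 0.71 for miR-27a-3p and 0.66 for miR-27b, and miR-100 with r = 0.74 for miR-27b. The features most like miR-27a-5p were others: miR-196b (r = 0.61), miR-224 (0.60) and miR-196a (0.59). miR-196a and miR-196b lie in the HOX gene clusters. The miR-24 row was most like miR-2285bf (0.81), miR-30d (0.77) and miR-374b (0.76). For miR-23b-3p, miR-23b-5p and miR-24-3p the highest r with any feature outside the members was only 0.36, 0.34 and 0.36.

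Other miRNAs tied to fat cell formation were read from fixed lists, with the class comparison as the measure. Over all 667 features, 7.2% were called higher in subcutaneous fat and 9.3% lower. Counts of 1 or 2 called rows in lists of this size lie near those shares. The counts are descriptions, and no set test was run. In a list of miRNAs known as inhibitors of fat cell formation, from which the members were left out, 3 of 17 tested rows were higher in subcutaneous fat and 1 was lower, with a median difference of −0.31 against −0.09 over all features. The higher ones were miR-224 (1.01 ± 0.17, adjusted p = 1.20e-04), miR-22-5p (0.72 ± 0.11, adjusted p = 1.69e-05) and miR-193a-5p (0.72 ± 0.24, adjusted p = 0.0399), and the lower one was miR-138 (−1.60 ± 0.48, adjusted p = 0.0191). The other rows of miR-22 and miR-193a were not called. miR-22-3p averaged 4315 CPM against 233 CPM for miR-22-5p, and its difference was −0.0055 ± 0.12. Those of miR-193a-3p and miR-193a were 0.26 ± 0.18 and 0.0061 ± 0.29. In the list of promoters of fat cell formation, 1 of 16 tested was higher, miR-103 (0.52 ± 0.14, adjusted p = 0.0125), and 2 were lower, miR-17-5p (−1.36 ± 0.43, adjusted p = 0.0254) and miR-335 (−1.15 ± 0.41, adjusted p = 0.0481), with a median of 0.07. miR-128, whose seed overlaps that of miR-27, had a difference of 0.21 ± 0.15 that was not called (adjusted p = 0.336).

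Markers of the other cells of the tissue moved in part with the classes. As above, 7.2% of all features were called higher in subcutaneous fat and 9.3% lower. Among markers of stroma and smooth muscle, 3 of 6 rows were higher in subcutaneous fat, namely miR-214 (1.49 ± 0.42), miR-199b (1.47 ± 0.18) and miR-199a-5p (0.83 ± 0.23), with 0 lower and a median of 0.64. The summed level of this list ran from 22000 to 41158 CPM in subcutaneous and from 8434 to 90492 CPM in visceral libraries, most of it miR-143 (0.02 ± 0.18, not called). In the epithelium and mesothelium list 5 of 5 were lower, led by miR-200b (−5.42 ± 0.996), with sums of 3.81 to 79.0 CPM in subcutaneous and 5.17 to 2816 CPM in visceral libraries. In the leukocyte list 3 of 6 were lower, led by miR-142-3p (−2.51 ± 0.65), with sums of 1559 to 25920 and 3075 to 46970 CPM. miR-142-3p was scarce, with means of 2.53 ± 3.60 CPM in subcutaneous and 17.2 ± 31.6 CPM in visceral fat (SD, n = 18 each). The more abundant miR-150 (−0.98 ± 0.36) and miR-155 (−0.92 ± 0.37) were not called. miR-223, also not called, went the other way (0.45 ± 0.29).

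The endothelial miR-126 rows gave 0 of 2 calls by edgeR, with sums of 17173 to 35340 and 15018 to 32997 CPM. The abundant miR-126-3p differed by 0.12 ± 0.12, and the scarcer miR-126-5p by 0.62 ± 0.24 (adjusted p = 0.0747). Red blood cell miRNAs gave 0 of 3 (miR-451 −0.31 ± 0.25, miR-144 −0.61 ± 0.38 and miR-486 0.14 ± 0.28). Their sums were 8230 to 185631 CPM in subcutaneous and 17229 to 93260 CPM in visceral libraries. By depot the mean sum was lowest in sternal fat, with 19893 CPM, and highest in back fat, with 98110 CPM. Of 6 muscle miRNAs 1 was lower, miR-499 (−0.73 ± 0.24), where 9.3% of all features were called lower. The uncalled muscle rows lay on both sides of 0, from −1.05 ± 0.51 (miR-1) to 0.90 ± 0.90 (miR-208b). Liver miR-122 (−3.44 ± 0.86) and neuronal miR-9-5p (−2.27 ± 0.27) were lower. The visceral libraries had a median of only 1.27 CPM of miR-122, with a highest of 283 CPM. Its mean was 52.8 CPM in perirenal fat, but 2.07 CPM in pericardial fat against 3.33 CPM in inguinal fat. Kidney miRNAs gave 0 of 3 (miR-192 −0.28 ± 0.14, miR-194 0.36 ± 0.26 and miR-215 −0.40 ± 0.31). No listed miRNA row was at 0 in every library. The part of these cells in the differences of miR-23a, miR-27a and miR-27b was not tested. Fat has no miRNA that defines it: of 6 rows rich in fat, miR-103 alone was called, the same call as given above for the promoters of fat cell formation, and miR-143, miR-378 and miR-193b were present in both classes.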

How the data were processed

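Small RNA was sequenced from 36 adipose samples, with TruSeq RNA LT kit v2 libraries made from RNeasy Lipid Tissue Mini Kit extracts, per the labels' protocols. The authors deposited raw read counts for each miRNA in each library as whole numbers, and beside them RPM values. The deposited RPM equalled count over library total on that scale (largest difference 4.79e-06). The submitters' processing notes name DESeq2 1.24.0 without saying what it did. Not given in the sources used here are the aligner, the miRNA caller, the build and the treatment of reads shared by near-identical miRNAs. A blank row with 0 counts was left out. The columns of other samples numbered 0, so every column was used or mapped.

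Depot and animal came from the labels. Counts were fitted by edgeR 4.0.16 under R 4.3.3, by its quasi-likelihood test (filterByExpr with a minimum count of 10, TMM factors from 0.745 to 1.26, 1 coefficient per depot, 30 residual degrees of freedom, two-sided). The class contrast took the mean of the 3 visceral depots from that of the 3 subcutaneous depots. Benjamini-Hochberg adjustment ran over all 667 features, and for pairs of depots over all 15 pairs as well, with a threshold of 0.05. The SE is the size of a log2 difference over the square root of its F statistic. log2 CPM used a prior count of 2, and limma 3.58.1 used log2(RPM + 1). Ratios within a library had 0.5 counts added to both terms and were tested over 6 animals by exact sign flips.

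The same animals gave every depot, so animal numbers pair the libraries. The main fit had no animal term and treated the 36 libraries as independent. After depot means were removed, libraries of the same animal had a mean correlation of 0.198 (over 0.1 in 64 of the 90 such pairs), and those of different animals had −0.0392. No libraries of a depot agreed within sampling noise. On simulated counts for subcutaneous against visceral (644 features), the test found 28.4% of the 1.5-fold, 55.2% of the 2-fold and 90.9% of the 4-fold changes and made 3 false calls in 467 unchanged features. The simulated libraries were independent, with no animal effect and no depot effect within a class. These rates therefore need not hold for the real libraries.

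Named miRNAs were all members, the 3 features of highest r with each member outside the members, and in each list up to 3 called rows of smallest p, or the most abundant row. Beside these, some further rows of a list were named for their arm, level or direction. miR-145, miR-155, miR-143, miR-103 and miR-378 stand in more than 1 list. Members and lists were chosen with earlier results of these data known. Alternatives were an animal block, RLE factors or library totals, no filter or a 10 CPM mean, a covariate for the library letter, B libraries alone, near-identical members summed, DESeq2 1.42.0, limma, counts summed per animal and class, 2 groups of 18 libraries, each animal and each library left out, and for ratios 10 added counts, summed counts or no pairing. Sequences and positions of the miRNAs are not used here.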

Additional observations from a re-analysis of the deposited data

Results flagged for a closer look

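Of 78 groups of 6 libraries (member levels in CPM and log2 ratios, by depot), 8 were flagged. In these a library's gap to the nearest other was large for the group's range by Dixon's criterion. For normally distributed values chance gives about 1 in 20. Every flagged member level was a highest value in CPM, a scale that need not follow that rate. Member levels were not examined on the log2 scale, so no excess over chance is read from the 8. miR-23a reached 4514 CPM in OAT1, next 2431 CPM, and 4628 CPM in PRAT6, next 2824 CPM, the highest visceral values of that member. miR-24 reached 106 CPM in SSAT1, next 46.4 CPM. miR-24-3p reached 42721 CPM in OAT3, next 15113 CPM. miR-27a-5p reached 282 CPM in SSAT6, next 48.0 CPM, and 66.1 CPM in PRAT1, next 28.9 CPM. The log2 ratio of miR-27a-5p to miR-27a-3p was −9.46 in BSAT1, next −7.54, and −7.03 in OAT2, next −8.49. Of the 8, 4 concern miR-27a-5p. Without OAT3 the class difference of miR-24-3p was 0.29 (adjusted p = 0.635, edgeR), again not called.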

How the results depend on the processing

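The class calls of miR-23a (1.42 to 1.88), miR-27a-3p (0.59 to 0.93) and miR-27a-5p (1.25 to 1.97) held in every fit run, with animals and single libraries left out included. The highest adjusted p over these fits was 0.00201 for miR-23a, 0.0178 for miR-27a-3p and 0.0242 for miR-27a-5p. The call of miR-27b was lost with library totals (0.31, adjusted p = 0.0664), limma (0.32, adjusted p = 0.0629) and B libraries alone (0.57, adjusted p = 0.104), and ran from 0.46 to 0.59 with animals left out, where it was lost without animal 4. The uncalled difference of miR-24-3p turned positive with RLE factors (0.0595), without the filter (0.0537), with a 10 CPM mean (0.0396), the animal as a block (0.10), DESeq2 (0.0595) and counts summed per animal with the block (0.29), and ran from −0.13 to 0.24 with animals and −0.09 to 0.29 with single libraries left out. That of miR-23b-3p ran from 0.39 (limma) to 1.11 (B libraries), with 0.45 without BSAT5, and was never called. That of miR-23b-5p turned negative with library totals (−0.0774) and limma (−0.39), and ran from −0.14 to 0.54 with animals and −0.18 to 0.49 with libraries left out. That of miR-24 turned negative with library totals (−0.0235) and limma (−0.0730), and ran from −0.0298 to 0.36 with animals left out. The 110 class calls over all features became 71 with the letter as a covariate, 39 in B libraries alone, 44 with counts summed per animal, and 56 to 101 with animals and 85 to 129 with single libraries left out. The 93 calls of the F test became 43 in B libraries, 172 by DESeq2 and 40 to 84 with animals and 70 to 104 with libraries left out. The 210 pair calls became 116 with no filter, 100 in B libraries, 517 by DESeq2 and 92 to 181 with animals and 162 to 298 with libraries left out. With the animal as a block there were 109 class calls, miR-27b passed the F test (adjusted p = 0.0364, as with RLE factors, 0.0394, a 10 CPM mean, 0.0276, and DESeq2, 0.0133), and omental miR-23a lost its call (adjusted p = 0.0601). With limma 19.3% of class calls were higher, against 43.6%. No ratio was called in any alternative with a test. With an animal left out the exact test cannot reach the threshold. In the other paired alternatives a single ratio could not reach it unless most of the others had the smallest possible p too. Without pairing the exact permutation p was 0.0108 to 0.106 unadjusted and 0.0541 to 0.106 adjusted. The summed ratio of the clusters ran from 0.34 to 0.62, miR-23a to miR-23b-3p from 0.66 to 1.55, miR-27a-3p to miR-27b from 0.17 to 0.35, the miR-27a arms from 0.46 (B libraries) to 0.97, and miR-24-3p from −1.23 (B libraries) to −0.57 (summed counts). The causes were not tested. Counts of miR-23b-5p were as low as 1, which limits what depth can show there, while the abundant members had at least 8270 counts in every library.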
